A study of Mus musculus with 2 samples.

Results

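The interferon effectors and immune checkpoint genes described here were 6 genes (Cd274, Ido1, Ubd, Wars, Tnfsf10 and Irf1) of the 32285 genes listed in a single-cell RNA sequencing experiment on aged mouse hindlimb muscle. They were chosen by symbol, from measured values in these same libraries, so their levels and ratios are given as a description with no test. Each of the 6 was found under exactly 1 gene identifier, and each had unique molecular identifiers (UMIs, the count of captured transcripts) in both libraries.

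Interferon gamma, released mainly by activated T and natural killer cells, binds a receptor made of Ifngr1 and Ifngr2, and signalling from that receptor switches on target genes through short promoter elements. Irf1 is itself such a target and is a transcription factor for later genes of the response, among them the checkpoint ligand PD-L1, the tryptophan-degrading enzyme Ido1, the tryptophanyl-tRNA synthetase and the ubiquitin-like modifier FAT10. Endothelial cells line the vessels of muscle, carry interferon receptors, and are known to display PD-L1 and antigen-presenting machinery when exposed to interferon gamma.

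The study compared aged muscle given retinoic acid receptor ligands with aged muscle given their solvent. Female C57Bl/6J mice of 24 months received 3 rounds of injection into hindlimb muscles, either of all-trans retinoic acid together with the agonists CD3254 and BMS961 (the ATRA+agonist library) or of DMSO vehicle (the DMSO vehicle library). By the methods, the solvent of the treated mice held DMSO as well, so DMSO was common to both groups, and no genotype change was made. Viable mononucleated cells were sorted, and the cells of 2 mice were pooled into 1 library per group on a 10x Genomics 3' platform. With 1 pooled library a group, mouse-to-mouse spread was not measured, treatment and library cannot be told apart, and all intervals below (95%, exact) cover counting error only.

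The ATRA+agonist library held 10444 barcodes, of which 6907 were kept as cells, with a median of 4686 UMIs. The DMSO vehicle library held 17394 barcodes, of which 6953 were kept, with a median of 4843 UMIs. The libraries shared 43 barcodes, 9 of them among kept cells. Clusters named by marker genes gave 12 classes, and 9 of these had at least 100 cells in each library. Endothelial-like cells were 37.3% of kept cells (2573 cells) in the ATRA+agonist library and 35.9% (2496 cells) in the DMSO vehicle library. Other classes differed more in size: B cell-like cells were 641 against 60, T or NK cell-like cells 308 against 101, neutrophil-like cells 26 against 157, and myonuclei-like barcodes 229 against 0. All 9 endothelial markers, Pecam1, Cdh5, Kdr, Tek, Flt1, Emcn, Cldn5, Esam and Egfl7, were at least 5.29-fold higher inside the endothelial-like class than outside it. The clusters of this class were named by these same markers, so this describes the class and is no test of its name.

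The 6 genes lay on 6 different chromosomes of the mouse genome (GRCm38, GENCODE M21). Cd274, which encodes PD-L1, was at chr19:29367455-29388095 on the plus strand. Ido1, indoleamine 2,3-dioxygenase, was at chr8:24584136-24597009 on the minus strand. Ubd, which encodes FAT10, was at chr17:37193892-37196095 on the plus strand. Wars, the cytoplasmic tryptophanyl-tRNA synthetase, was at chr12:108860030-108894174 on the minus strand. Tnfsf10, which encodes the death ligand TRAIL, was at chr3:27317028-27342427 on the plus strand. Irf1 was at chr11:53770014-53778374 on the plus strand.

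Start-site sequences were held for 4 of the 6 genes (RefSeq, GRCm38.p6), not for Ido1 and Wars. They are shown because the genes are known interferon targets and because Irf1 differed from the others in the values below. The 250 bases before each start site are printed on the plus strand, 5′ to 3′, and capitals mark the match to the gamma-activated sequence (GAS), an element of promoters that respond to interferon gamma, searched as TTCNNNGAA.
Irf1, chr11:53769764-53770013: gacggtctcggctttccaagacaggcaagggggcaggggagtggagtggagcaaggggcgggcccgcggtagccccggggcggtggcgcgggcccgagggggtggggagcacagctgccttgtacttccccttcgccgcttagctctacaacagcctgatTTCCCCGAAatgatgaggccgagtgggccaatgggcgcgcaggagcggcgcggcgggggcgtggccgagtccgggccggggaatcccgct
Cd274, chr19:29367188-29367437: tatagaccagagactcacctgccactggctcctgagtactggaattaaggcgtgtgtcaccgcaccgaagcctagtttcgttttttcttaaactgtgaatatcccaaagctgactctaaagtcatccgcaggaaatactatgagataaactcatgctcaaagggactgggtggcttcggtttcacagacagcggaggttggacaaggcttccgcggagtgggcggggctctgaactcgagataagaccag
Ubd, chr17:37193642-37193891: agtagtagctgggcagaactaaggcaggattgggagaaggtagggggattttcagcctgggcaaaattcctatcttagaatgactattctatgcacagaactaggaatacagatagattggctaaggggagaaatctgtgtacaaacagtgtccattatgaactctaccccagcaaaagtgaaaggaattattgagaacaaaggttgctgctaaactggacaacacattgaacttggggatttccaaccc
Tnfsf10, chr3:27316827-27317076: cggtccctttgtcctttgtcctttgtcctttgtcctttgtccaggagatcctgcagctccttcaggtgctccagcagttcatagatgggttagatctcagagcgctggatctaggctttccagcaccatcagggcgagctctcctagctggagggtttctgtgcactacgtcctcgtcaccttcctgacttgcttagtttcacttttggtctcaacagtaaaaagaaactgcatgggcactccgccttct

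Windows of 300 bases, from 250 before to 50 after a start site, were searched on both strands for GAS and for the interferon-stimulated response element (ISRE, searched as GAAA, then 2 bases of any kind, then GAAA), the element bound by interferon regulatory factors. Of the 5 windows of these genes, which included an alternative Irf1 start site, only the first Irf1 window held a match, the GAS element TTCCCCGAA beginning 90 bases before the start. GAS matched 8.30% and ISRE 3.44% of all 32851 windows. A match of letters is not a binding site. Only exact matches were counted, so a window without a match may still hold an element that departs from the pattern. Elements farther from the start were not searched.

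In endothelial-like cells, 5 of the 6 genes were at least 2-fold lower in the ATRA+agonist library than in the DMSO vehicle library, and Irf1 was not. The same rule, a ratio of at least 2-fold with at least 20 UMIs over both libraries, called 2.85% of the 13195 genes tested in this class as lower and 2.14% as higher, and none of the 6 was called higher. All 6 passed the minimum of 20 UMIs there. The median log2 ratio (ATRA+agonist over DMSO vehicle) of the 6 genes was -2.28, beside 0.078 for all genes tested. Levels are given as CPM (the UMIs of a gene scaled to a total of 1000000 UMIs per class and library), a scale that does not correct for transcript length, so levels of different genes are not compared.

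Irf1, the transcription factor of the group, had 5768 UMIs in ATRA+agonist and 6250 UMIs in DMSO vehicle endothelial-like cells. Its level was 781 CPM (761 to 801) in the former and 742 CPM (724 to 761) in the latter, a log2 ratio of 0.074 (0.022 to 0.13). The levels were nearly equal, and the sign of this small ratio turned under other scalings, to -0.0031 with median-of-ratios scaling and to -0.044 with every cell weighted equally. Without the hemoglobin filter the ratio was larger, at 0.26.

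Cd274 had 1409 UMIs in ATRA+agonist and 7405 UMIs in DMSO vehicle endothelial-like cells. PD-L1, its product, binds the receptor PD-1 on T cells and dampens their activation. The level was 191 CPM (181 to 201) against 879 CPM (859 to 899), a log2 ratio of -2.20 (-2.29 to -2.12), or 4.61-fold higher in DMSO vehicle cells. The intervals of the libraries were far apart.

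Tnfsf10 had 862 UMIs against 2237 UMIs. TRAIL, which it encodes, binds death receptors and can start apoptosis through caspase 8. Its level was 117 CPM (109 to 125) in ATRA+agonist and 266 CPM (255 to 277) in DMSO vehicle endothelial-like cells, a log2 ratio of -1.19 (-1.30 to -1.07). It was the member nearest to the 2-fold limit among the 5 that passed it.

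Ido1, which carries out the rate-limiting step from tryptophan to kynurenine, had 94 UMIs against 942 UMIs. The level was 12.7 CPM (10.3 to 15.6) against 112 CPM (105 to 119), a log2 ratio of -3.14 (-3.46 to -2.83). Wars, which charges tRNA with tryptophan, had 685 UMIs against 4015 UMIs. Its level was 92.7 CPM (85.9 to 99.9) against 477 CPM (462 to 492), a log2 ratio of -2.36 (-2.48 to -2.24). Both genes of tryptophan use were thus several-fold lower in ATRA+agonist endothelial-like cells.

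Ubd had 15 UMIs in 11 ATRA+agonist cells and 1311 UMIs in 544 DMSO vehicle cells. FAT10, its product, is attached to other proteins and marks them for the proteasome. Its level was 2.03 CPM (1.14 to 3.35) against 156 CPM (147 to 164), a log2 ratio of -6.26 (-7.10 to -5.53). Ordered from the lowest ratio upwards, Ubd stood at place 3 of the 13195 genes, Ido1 at 20, Wars at 48, Cd274 at 52, Tnfsf10 at 270 and Irf1 at 6511.

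**Figure D1:**
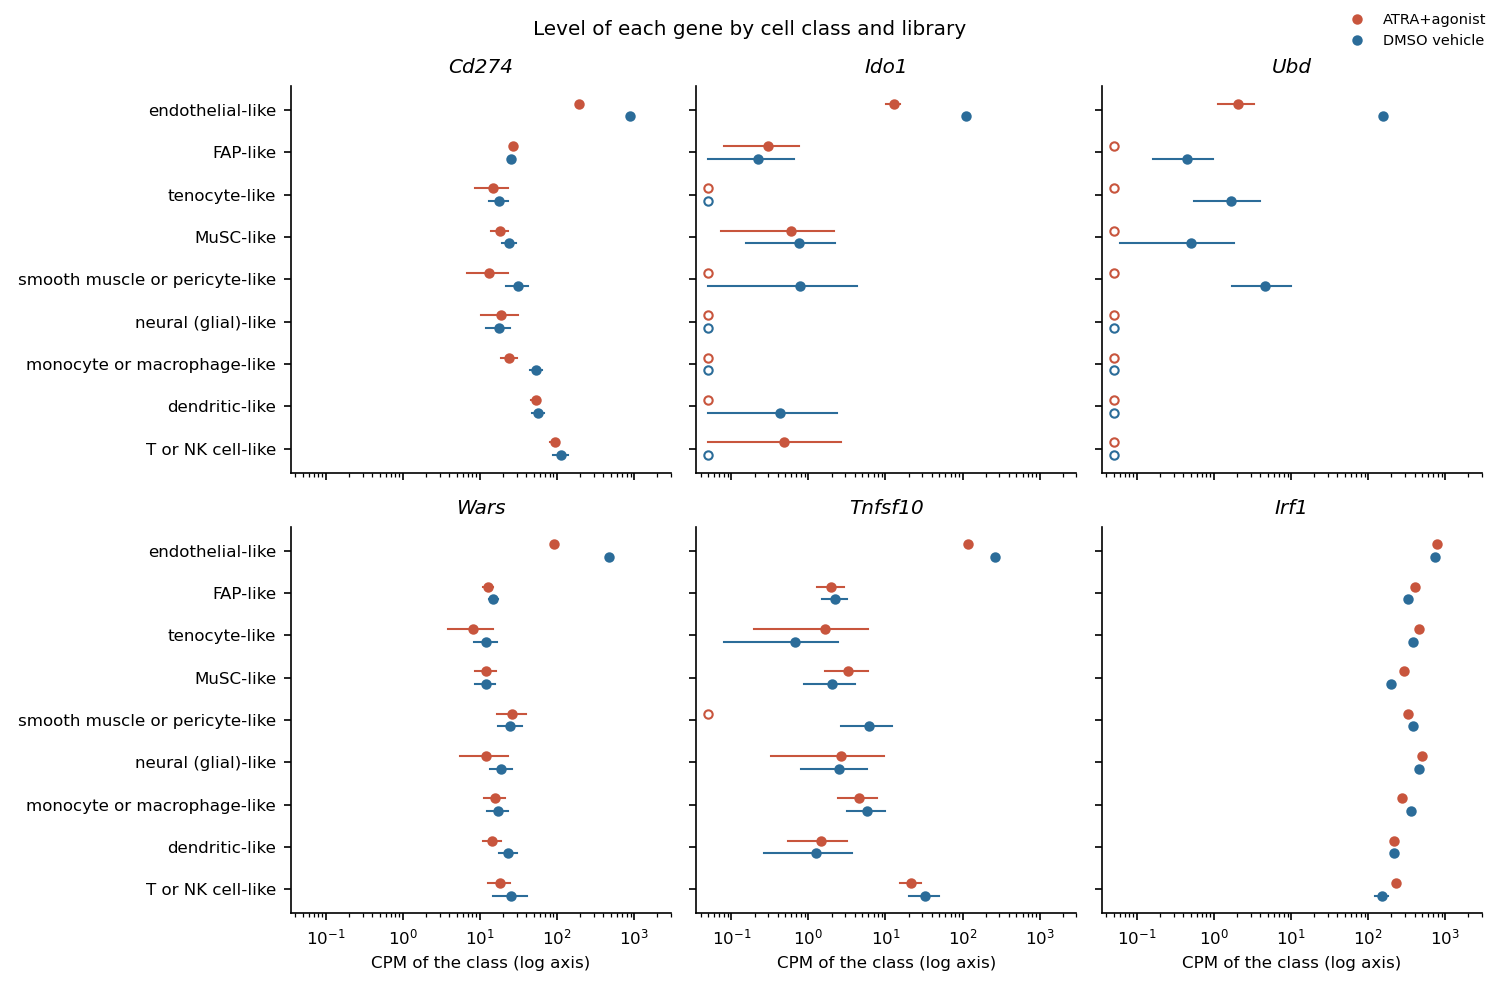
Level of each gene (CPM of the class, log axis) in the 9 classes with at least 100 cells per library, with exact 95% Poisson intervals. Red is ATRA+agonist, blue is DMSO vehicle, and open circles at the left edge mark classes with 0 UMIs. In endothelial-like cells Cd274 is at 191 and 879 CPM and Ubd at 2.03 and 156 CPM, while Irf1 is at 781 and 742 CPM.

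The share of endothelial-like cells with at least 1 UMI was compared after every cell was thinned to 1000 UMIs. This left out shallower cells and kept 2049 ATRA+agonist and 2235 DMSO vehicle cells. Cd274 was found in 13.3% of the former and 40.9% of the latter, against 25.1% and 57.7% without thinning. Ido1 and Ubd were found in fewer cells of both libraries. Ido1 was found in 0.927% and 9.40% (2.76% and 20.2% without thinning), and Ubd in 0.195% and 10.2% (0.428% and 21.8%). Wars was found in 8.98% and 31.3% (19.3% and 53.1%), and Tnfsf10 in 9.81% and 20.7% (24.6% and 43.2%). For Irf1 the thinned shares were 45.6% and 46.0%, and the unthinned ones 59.5% and 69.2%. At matched depth the Irf1 shares were thus close. Without thinning they differed, beside a median depth of 2771 UMIs in ATRA+agonist and 3179.5 UMIs in DMSO vehicle endothelial-like cells. Thinning also changed the set of cells, so the part of depth in this gap was not tested.

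Barcodes with fewer than 300 genes were taken as the level of free RNA. A median of 97.1% of their UMIs in the ATRA+agonist library and 96.9% in the DMSO vehicle library came from hemoglobin genes. Red blood cells should lack these 6 genes, and at most 0.743% of such barcodes held a UMI of any of them, at a median depth of 5675.5 and 6884.5 UMIs. Ubd was found in 0.290% of these barcodes in the DMSO vehicle library. It was in 0.365% (0.134% to 0.792%) of FAP-like cells (fibro-adipogenic progenitors) and 0.189% (0.00478% to 1.05%) of MuSC-like cells (muscle stem cells). Both intervals held the share in these barcodes, and the source of the few Ubd UMIs in those classes was not tested. Ubd was in 0.602% (0.124% to 1.75%) of tenocyte-like cells and in 1.55% (0.504% to 3.58%) of smooth muscle or pericyte-like cells, 5 of 323 cells, and the latter interval lay above the share in these barcodes. The shares in endothelial-like cells were above it for every member in the DMSO vehicle library. In the ATRA+agonist library Ubd was at 0.428% of endothelial-like cells against 0 of 2428 such barcodes, which allows up to 3 barcodes.

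Outside the endothelial-like class Ubd and Ido1 were almost absent. In the ATRA+agonist library 15 of 15 Ubd UMIs were in endothelial-like cells, and in the DMSO vehicle library 97.9% of 1339 UMIs were, with 28 UMIs elsewhere. For Ido1, 93.1% of 101 UMIs and 98.8% of 953 UMIs were in endothelial-like cells. Tnfsf10 was nearly as concentrated, with 86.2% of 1000 UMIs and 95.7% of 2337 UMIs. By contrast, Irf1 had most of its UMIs outside endothelial-like cells. These held 34.5% and 38.5% of its UMIs and were 37.3% and 35.9% of kept cells. By CPM, Irf1 was at 781 and 742 in endothelial-like cells, against 401 and 400 over all kept cells.

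For Cd274 and Wars the endothelial-like share itself differed between libraries. Endothelial-like cells held 50.7% of Cd274 UMIs in the ATRA+agonist library and 85.6% in the DMSO vehicle library, while UMIs in all other cells were 1370 and 1247. For Wars the shares were 57.3% and 87.6%, and the UMIs outside were 511 and 568. The totals outside endothelial-like cells were therefore alike for both genes, with classes of unequal size behind them.

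Among the 9 classes, the order of Cd274 levels in both libraries began with endothelial-like, T or NK cell-like and dendritic-like cells. In T or NK cell-like cells, where PD-L1 is also induced by activation, Cd274 was at 93.0 CPM in ATRA+agonist and 111 CPM in DMSO vehicle. In dendritic-like cells, which present antigen to T cells, it was at 53.2 and 56.9 CPM. The remaining classes lay between 13.2 and 27.1 CPM in the ATRA+agonist library and between 17.5 and 53.5 CPM in the DMSO vehicle library, and 5 of the 8 neighbouring pairs in each order had overlapping intervals. Neutrophil-like and B cell-like cells were too few in a library (26 in ATRA+agonist and 60 in DMSO vehicle) to enter this order. In DMSO vehicle neutrophil-like cells Cd274 was at 173 CPM (154 to 194), above T or NK cell-like cells. In ATRA+agonist B cell-like cells it was at 91.1 CPM (82.1 to 101), above dendritic-like cells. In the small groups it was at 118 CPM (79.9 to 169) in neutrophil-like and 60.6 CPM (37.5 to 92.7) in B cell-like cells. Endothelial-like cells led the order for all 6 genes in both libraries. Their intervals did not overlap those of the next class, except for Ubd in the ATRA+agonist library. There every other class of the order had 0 Ubd UMIs. The endothelial-like interval (1.14 to 3.35 CPM) overlapped those of some smaller classes, such as tenocyte-like cells (0 to 3.00 CPM). For Irf1 the lead was small, 1.56-fold over neural (glial)-like cells in the ATRA+agonist library and 1.64-fold in the DMSO vehicle library.

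Tnfsf10 came next in T or NK cell-like cells, where TRAIL is a known effector, at 21.5 CPM in ATRA+agonist and 32.7 CPM in DMSO vehicle. In every other class with at least 100 cells it was at or below 6.19 CPM. Wars, as a housekeeping enzyme of protein synthesis, was found in all of these classes, from 8.12 to 26.4 CPM in ATRA+agonist and from 11.9 to 25.3 CPM in DMSO vehicle cells outside the endothelial-like class. In each Wars order of 9 classes, 1 of 8 neighbouring pairs was separated by its intervals, the step from endothelial-like cells to the next class. In each Tnfsf10 order 2 of 8 pairs were separated, the steps below endothelial-like and below T or NK cell-like cells.

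Beyond endothelial-like cells, 8 classes were large enough to compare, and with likely doublets removed a ratio of 2-fold was reached there by Cd274 alone, in 2 classes. In monocyte or macrophage-like cells Cd274 had 69 UMIs (24.0 CPM) against 129 UMIs (53.5 CPM), a log2 ratio of -1.16 (-1.60 to -0.73). This was 1 of 4 members tested, where 2.29% of all genes tested were lower, and the ratio moved between -2.24 and -0.42 over the processing alternatives. In smooth muscle or pericyte-like cells Cd274 had 12 UMIs (13.2 CPM) against 40 UMIs (31.0 CPM), a log2 ratio of -1.23 (-2.30 to -0.27). This was 1 of 3 members tested, where 4.19% of genes were lower, and with cells thinned to 1000 UMIs the ratio was 0.054, so no direction is read from it.

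In the other classes 0 members were lower by the rule with likely doublets removed. These were FAP-like cells (0 of 4 tested, 3.53% of all genes lower), tenocyte-like cells (0 of 3, 5.51%), MuSC-like cells (0 of 3, 2.00%), neural (glial)-like cells (0 of 3, 6.13%), dendritic-like cells (0 of 3, 1.81%) and T or NK cell-like cells (0 of 4, 4.82%). The log2 ratio of Cd274 was 0.091 (-0.12 to 0.31) in FAP-like and -0.26 (-0.65 to 0.14) in T or NK cell-like cells. That of Wars was -0.21 (-0.51 to 0.091) in FAP-like and -0.70 (-1.25 to -0.14) in dendritic-like cells. That of Tnfsf10 in T or NK cell-like cells was -0.61 (-1.37 to 0.20). Without doublet removal the ratio passed 2-fold for Cd274 and Wars in neural (glial)-like cells (-2.07 and -1.33) and in tenocyte-like cells (-1.05 and -1.13), and for Tnfsf10 in FAP-like cells (-1.04). Wars also passed 2-fold without the 10 cells of each library with most UMIs of the gene, at -1.59 in neural (glial)-like, -1.68 in tenocyte-like and, in the other direction, 1.34 in T or NK cell-like cells. With cells weighted equally Wars was at -1.03 in neural (glial)-like and Tnfsf10 at -1.03 in T or NK cell-like cells. So the absence of further 2-fold ratios depends on the processing in these classes. Most of the intervals above held 0, and the one of Wars in dendritic-like cells did not. The cells of the 2 unnamed clusters had 7 against 29 Cd274 UMIs and 4 against 25 Wars UMIs.

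Irf1 had enough UMIs for a ratio in each of the 9 classes. Muscle stem cell-like cells had 988 UMIs (296 CPM) in the ATRA+agonist library against 795 UMIs (201 CPM), a log2 ratio of 0.56 (0.42 to 0.69). T or NK cell-like cells had 489 UMIs (233 CPM) against 101 UMIs (150 CPM), a log2 ratio of 0.64 (0.32 to 0.96). Both stromal classes pointed the same way, with a ratio of 0.29 (0.23 to 0.35) for FAP-like and 0.26 (0.11 to 0.41) for tenocyte-like cells. The macrophage class pointed the other way, at -0.37 (-0.51 to -0.23). The share of all genes with a counting interval above 0 is not given, so the count that follows only describes Irf1. By its counting interval Irf1 was at a higher level in the ATRA+agonist library in 4 of the 8 classes outside the endothelial-like one. The ratio was below 2-fold in each, but in T or NK cell-like cells it was 1.33 when cells were thinned to 1000 UMIs.

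**Figure D2:**
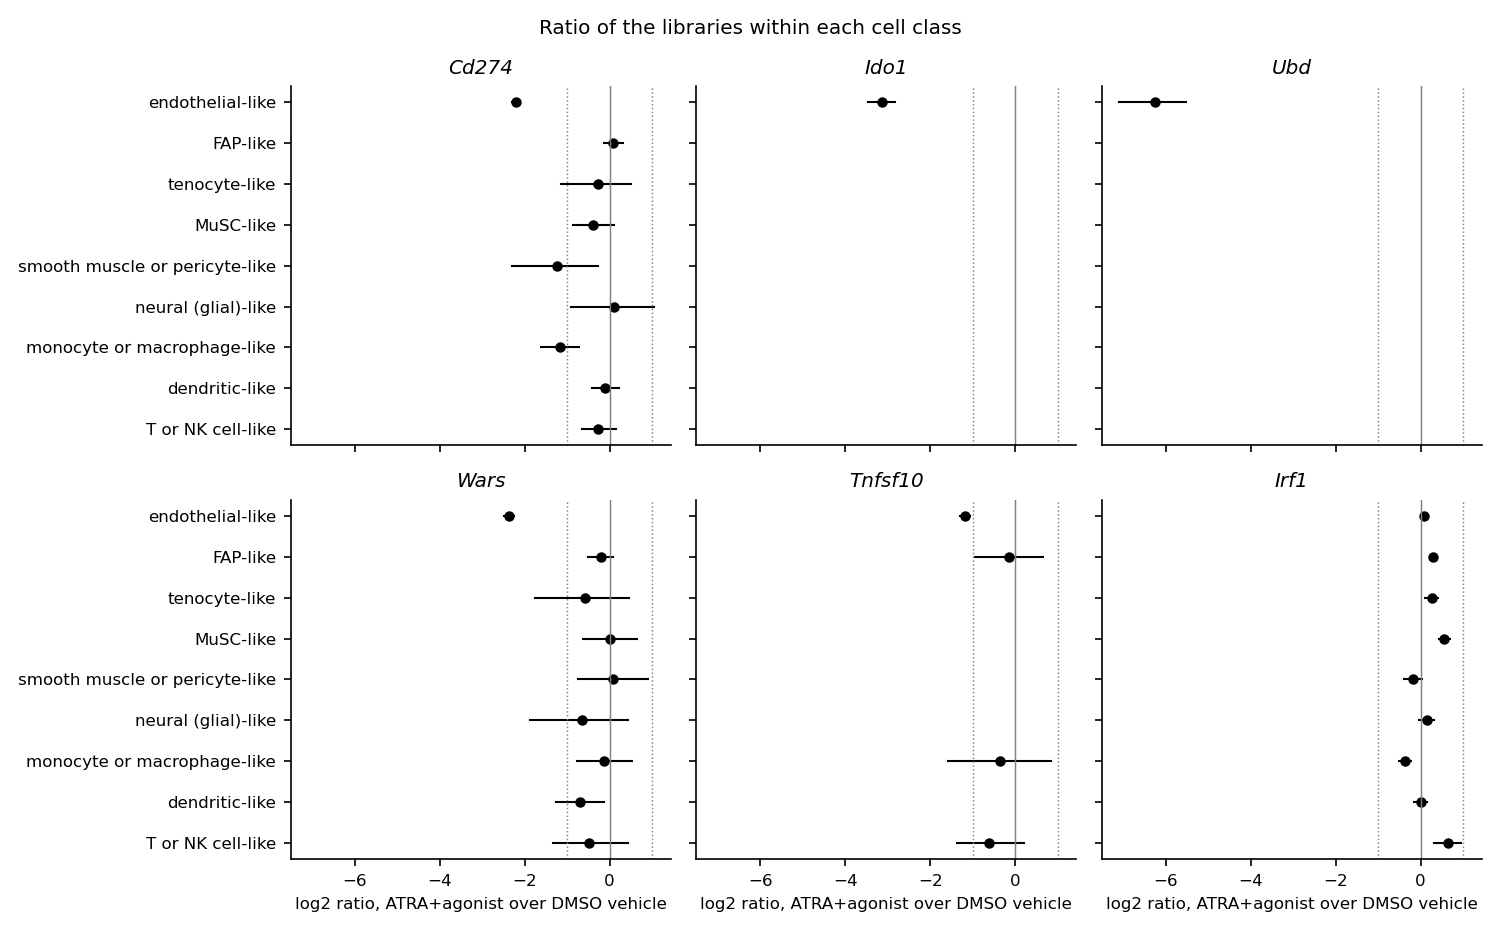
Log2 ratio (ATRA+agonist over DMSO vehicle) of each gene in the 9 classes, with exact 95% counting intervals, for classes with at least 20 UMIs over both libraries. Dotted lines mark 2-fold. Points left of the dotted line are the 5 endothelial-like ones, from -1.19 for Tnfsf10 to -6.26 for Ubd, and Cd274 in monocyte or macrophage-like and smooth muscle or pericyte-like cells.

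Endothelial-like cells formed 5 clusters, and a gate on vessel-type markers did not separate them, since it placed 2483 of 2573 and 2349 of 2496 cells in the capillary class. Clusters are therefore given by number and leading genes. Cluster 0 (Aqp1, Flt1 and Kdr) held 1138 and 1145 cells, cluster 5 (Timp4, Gpihbp1 and Car4) 338 and 415, and cluster 7 (Sema3g, Stmn2 and Edn1) 283 and 307, in the order ATRA+agonist and DMSO vehicle. In cluster 7, 7 of 8 arterial markers were at least 2-fold higher than in the other endothelial-like cells. Cluster 2 (Rflnb, Fabp4 and Stmn2) held 650 and 374 cells and had a median of 830 UMIs. In it, 3 of 7 venous markers (Ackr1, Lrg1 and Plvap) were at least 2-fold higher than in the other endothelial-like cells, and the remaining venous markers were not. Of its leading genes, Fabp4 was a capillary and Stmn2 an arterial marker of the gate, so cluster 2 is not named. Cluster 13 (164 and 255 cells) was led by the lymphatic genes Ccl21a and Mmrn1, but only 24 of its 419 cells held a UMI of Prox1, Reln or Mmrn1, so it is not named.

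Cd274 and Wars were lower in the ATRA+agonist library in 5 of 5 clusters. The log2 ratio of Cd274 ranged from -2.49 in cluster 13 to -1.75 in cluster 7, and that of Wars from -3.02 in cluster 2 to -1.82 in cluster 5. In DMSO vehicle cells Cd274 was highest in cluster 0, at 1018 CPM (989 to 1047), and lowest in cluster 2, at 322 CPM (269 to 383). Wars had another order, with its highest level in cluster 7, at 625 CPM (585 to 666), and its lowest in cluster 13, at 307 CPM (263 to 357).

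Ubd was at 0 of 650 ATRA+agonist cells of cluster 2, where the DMSO vehicle cells had 109 UMIs, at least 54.0-fold more against a floor of 3 UMIs. Its DMSO vehicle level was highest in this cluster, at 274 CPM (225 to 331). In cluster 13 it had 0 against 45 UMIs, at least 7.38-fold. In cluster 7, the one with most ATRA+agonist UMIs, it had 9 against 266 UMIs, a log2 ratio of -4.57 (-5.71 to -3.62). Ido1 in cluster 7 had 27 against 136 UMIs, a log2 ratio of -2.01 (-2.67 to -1.41), and in cluster 13 it had 0 against 79 UMIs, at least 13.0-fold. In the remaining clusters the Ido1 ratio lay between -3.56 and -3.23.

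Tnfsf10 differed least in clusters 7 and 13, with log2 ratios of -0.64 (-0.93 to -0.35) and -0.68 (-1.48 to 0.064), and reached -1.30, -1.29 and -1.38 in clusters 0, 2 and 5. Irf1 was at 1154 CPM in ATRA+agonist and 1028 CPM in DMSO vehicle cells of cluster 7, its highest levels, and at 187 and 171 CPM in cluster 2. Its ratio was 0.20 (0.13 to 0.27) in cluster 0 and -0.45 (-0.70 to -0.20) in cluster 13, so that clusters lay on both sides of 0.

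**Figure D3:**
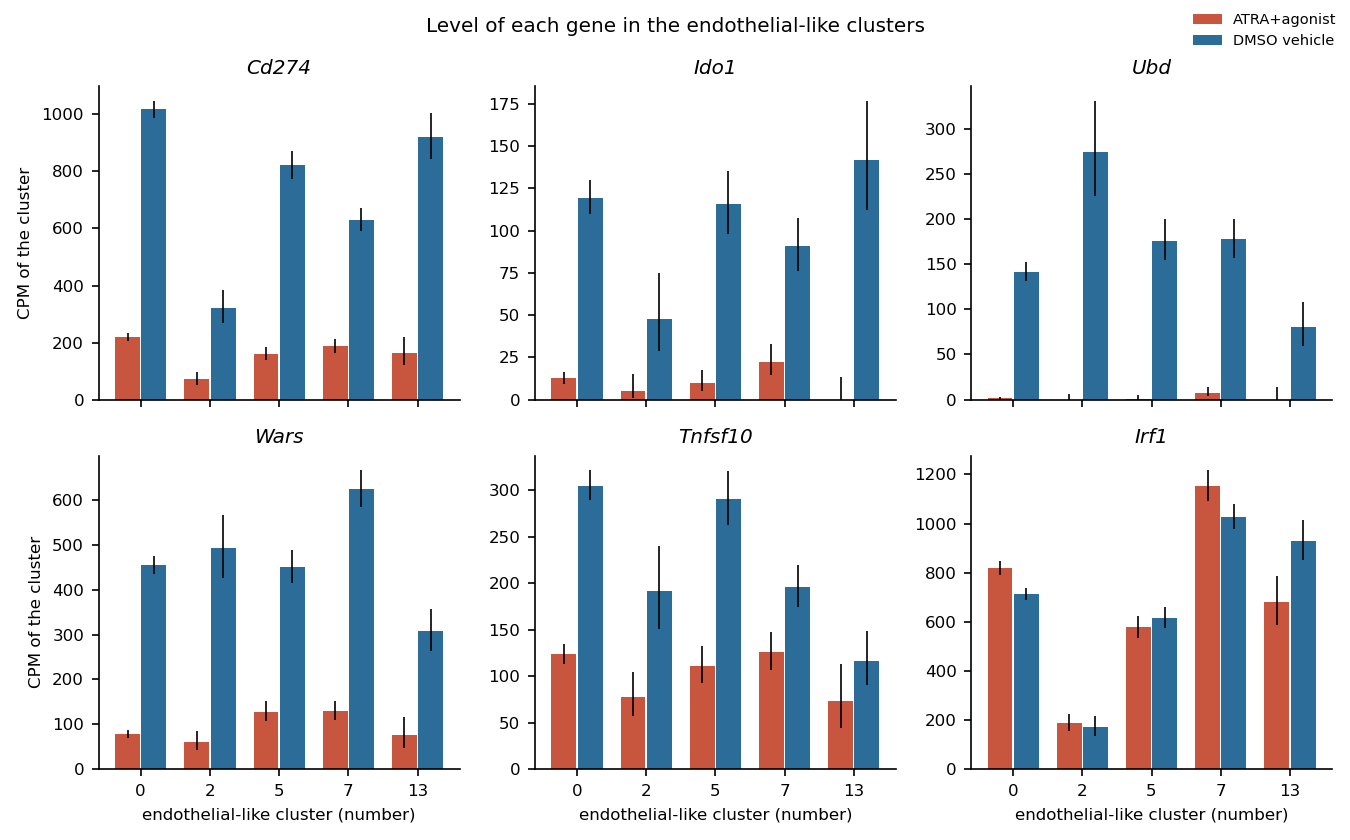
Level (CPM of the cluster) of each gene in the 5 endothelial-like clusters, in red for ATRA+agonist and blue for DMSO vehicle, with exact 95% Poisson intervals. Cd274 and Wars are lower in red in all 5 clusters, while the Irf1 bars differ little and lie on both sides of equality.

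The genes were then followed in single endothelial-like cells, each thinned to 2000 UMIs, which kept 1704 ATRA+agonist and 1910 DMSO vehicle cells. At least 3 of the 5 genes other than Irf1 were found in 30 ATRA+agonist cells, 1.76% (1.19% to 2.50%), and in 585 DMSO vehicle cells, 30.6% (28.6% to 32.8%). None of the 5 was found in 50.7% and 23.9% of cells. All 6 genes were found in 0 ATRA+agonist cells, which allows up to 3 cells, and in 26 DMSO vehicle cells. Cells rich in several of the genes were thus mostly DMSO vehicle cells.

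**Figure D4:**
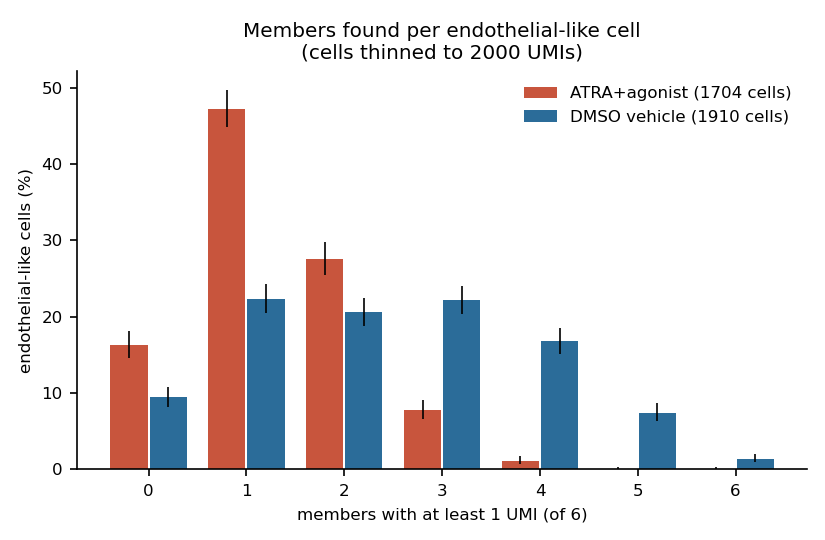
Share of endothelial-like cells by the number of the 6 genes with at least 1 UMI, after thinning to 2000 UMIs. Red is ATRA+agonist (1704 cells), blue is DMSO vehicle (1910 cells), and bars have exact 95% binomial intervals. No ATRA+agonist cell held 5 or 6 of the genes, against 141 and 26 DMSO vehicle cells.

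In DMSO vehicle cells the genes went together from cell to cell. Ido1 was found in 22.96% of the 1089 cells with Cd274 and 8.53% of the 821 cells without it, Ubd in 25.4% and 8.04%, and Wars in 58.0% and 30.2%. Tnfsf10 was found in 47.5% and 21.3%, and Irf1 in 71.3% and 63.6%. In ATRA+agonist cells the same shares were closer. They were 2.38% of 421 Cd274-positive and 2.03% of 1283 Cd274-negative cells for Ido1, 16.4% and 14.0% for Wars, 22.1% and 20.4% for Tnfsf10, and 72.0% and 66.3% for Irf1. For Ubd they rested on 1 and 5 UMIs. Cells of 1 library are not replicates, and the difference between libraries in this co-occurrence was not tested.

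The UMIs of Ubd and Ido1 came from few cells even in the DMSO vehicle library. The tenth of endothelial-like cells with most UMIs of the gene (250 cells) held 74.6% of Ubd and 73.0% of Ido1 UMIs, against 48.2% for Cd274, 46.2% for Wars, 47.6% for Tnfsf10 and 37.6% for Irf1. The highest count in a cell was 28 for Ubd and 46 for Cd274. In the ATRA+agonist library the highest counts were 2 for Ubd and 17 for Cd274.

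Markers of other cell types were summed in the endothelial-like cells. The 9 T or NK cell markers summed to 0.677 CPM in ATRA+agonist (5 of 9 at 0) and 0.237 CPM in DMSO vehicle cells (8 of 9 at 0). The 8 neutrophil markers summed to 2.98 CPM (3 at 0) and 19.2 CPM (0 at 0), and the 9 myonuclei markers to 118 and 57.7 CPM (0 at 0 in both). The highest sum was that of the 9 smooth muscle or pericyte markers, at 386 and 337 CPM, beside 9464 and 8694 CPM for the 9 endothelial markers. The part of these differences in the member ratios was not tested.

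Lists of genes around each member were read in the same endothelial-like cells, where, as above, 2.85% of all genes were lower and the median log2 ratio was 0.078. The chains of the interferon gamma receptor were not lower, at 0.093 (-0.019 to 0.20) for Ifngr1 and 0.59 (0.18 to 1.004) for Ifngr2. Socs1, the feedback inhibitor of the receptor kinases, was at -0.66.

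Interferon gamma itself was found mainly in T or NK cell-like cells. Ifng had 199 UMIs in 62 of 308 ATRA+agonist cells and 178 UMIs in 33 of 101 DMSO vehicle cells, or 94.9 CPM (82.2 to 109) and 265 CPM (227 to 306). Its log2 ratio was -1.48 (-1.78 to -1.18), with the 5 highest cells holding 31.2% and 70.2% of these UMIs. Endothelial-like cells had 1 Ifng UMI in each library. Total Ifng UMIs were thus similar, spread over unequal numbers of T or NK cell-like cells.

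Of the interferon regulatory factors, 1 of 7 tested was lower, Irf8, a factor best known from myeloid cells, at -1.18 (-1.36 to -1.002) with 47.4 against 107 CPM. The other 5 besides Irf1 lay between -0.28 and 0.21. Of the checkpoint ligands and receptors, 2 of 12 tested were lower, Cd274 and Pdcd1lg2, the other ligand of PD-1, at -1.70 (-3.15 to -0.46) from 7 and 26 UMIs. Cd200, a ligand that restrains myeloid cells, was at 0.57 (0.50 to 0.64), and Cd47 and Lgals9 were at -0.039 and 0.038. The receptor Pdcd1 had no UMI in endothelial-like cells, and in T or NK cell-like cells it had 119 UMIs (56.7 CPM) in ATRA+agonist and 60 UMIs (89.2 CPM) in DMSO vehicle.

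In the tryptophan and kynurenine pathway Ido1 was the single lower gene of 8 tested. Its paralog Ido2 was at -0.89 (-1.28 to -0.51), the aminotransferase Kyat3 at -0.64, and the tryptophan transporter subunits Slc7a5 and Slc3a2 at -0.39 and -0.31. Kynu, Kmo, Haao, Qprt and Tdo2, enzymes of tryptophan breakdown outside Ido1, were under 20 UMIs. Wars was the single lower gene among the 19 cytoplasmic aminoacyl-tRNA synthetases measured. The 18 others lay between -0.30 and 0.47, with a median of 0.11, and the highest of them, Dars, was at 0.47 (0.24 to 0.69).

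Of 14 genes of FAT10 conjugation and the proteasome, 3 were lower: Ubd and the immunoproteasome subunits Psmb8, at -1.12 (-1.19 to -1.04), and Psmb9, at -1.18 (-1.29 to -1.07). The remaining immunoproteasome subunit Psmb10 was at -0.67, and the activator subunits Psme1 and Psme2 were at -0.57 and -0.48. The constitutive subunits that these replace, Psmb5, Psmb6 and Psmb7, were at 0.20, 0.11 and 0.089. The FAT10-activating enzyme Uba6 and its partner Ube2z were at -0.12 and -0.066. In the TRAIL pathway Tnfsf10 was the single lower gene of 16 tested, and its receptor Tnfrsf10b was at 0.48 (0.24 to 0.71). The inhibitor Cflar was at -0.60 and the receptor Fas at -0.49. No gene of these lists was higher by the 2-fold rule.

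**Figure D5:**
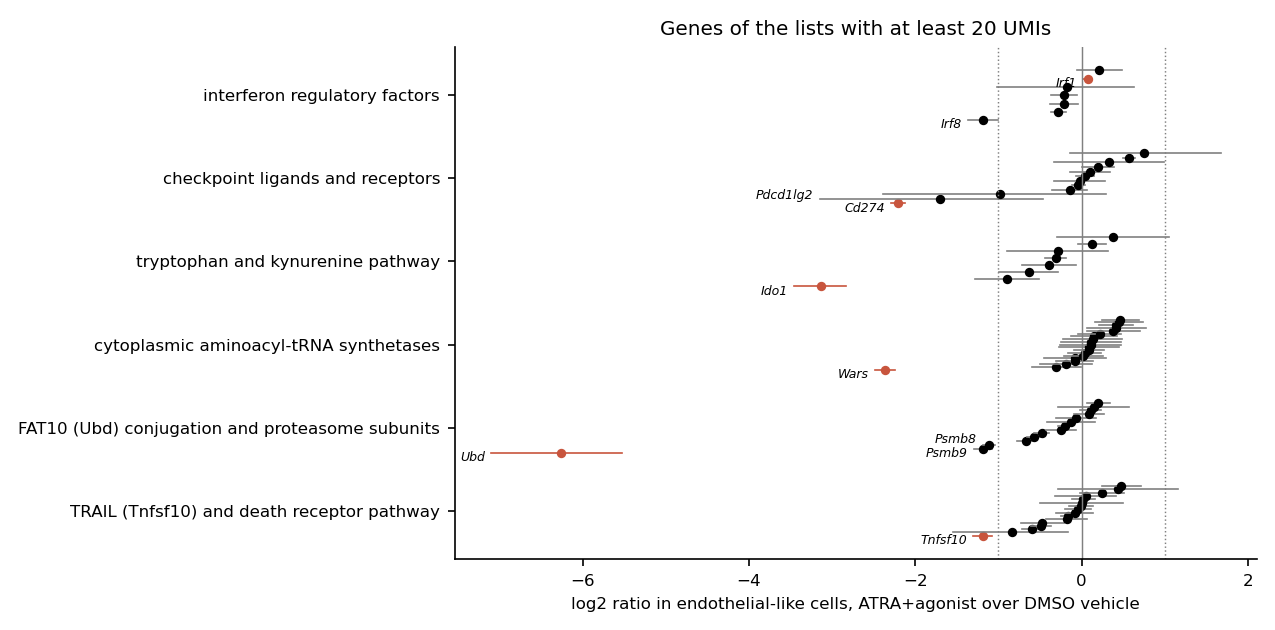
Log2 ratio (ATRA+agonist over DMSO vehicle) in endothelial-like cells of the genes of 6 lists with at least 20 UMIs, with exact 95% counting intervals. Red points are the 6 genes described here, named points are the members and the genes at least 2-fold lower, and dotted lines mark 2-fold. Wars, at -2.36, lies apart from the other tRNA synthetases, which end at -0.30.

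The pattern of each gene was compared with that of 15291 genes by Pearson correlation of log2(CPM + 10) over 20 points (10 classes in each library). These points share depth and the high endothelial-like values, and no p is given. Closest to Cd274 were Gbp4 (r = 0.96), Gbp8, Gm20663, Tap2 and Gvin1. Closest to Tnfsf10 were Gbp9 (0.96), 1700094M23Rik, Gbp4, Tnfrsf10b and Tgtp1. Closest to Ido1 were Thsd7b (0.98), Tmem252, Lrg1, Fam167b and Wars, and closest to Wars were Lrg1 (0.97), Tmem252, Thsd7b, Ido1 and Fam167b. Closest to Irf1 were Ifit3b (0.94), Cyb5r3, Ifit3, Ptprm and Aplp2.

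For Ubd the closest gene was Ctsg (0.96), followed by Gbp10, Ido1, Selp and Tmem252. Ctsg was nearly unmeasured in endothelial-like cells, at 0 and 0.119 CPM, and no weight is placed on its correlation. Between members, r ranged from 0.69 to 0.96 among the 5 genes other than Irf1, and from 0.16 to 0.54 between Irf1 and each of them.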

How the data were processed

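Single-cell RNA sequencing was performed on 2 libraries, each of cells pooled from 2 mice and sorted with propidium iodide. The authors aligned reads with Cell Ranger 7.2.0 (mm10, per the file headers) and deposited filtered matrices of UMI counts per gene and barcode. Barcodes with 300 to 5000 genes, under 20% mitochondrial and under 0.25% Hbb- UMIs were kept, and 7.5% of them were removed as likely doublets by a rebuilt nearest-neighbour score. Cells were log-normalised and clustered (2000 variable genes, 30 components, 20 neighbours, Louvain resolution 0.8) with 219 interferon-related and listed genes left out. Clusters were named from marker lists. These class names may differ from those of the study.

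Raw UMIs were summed per class and library. Levels have exact Poisson intervals, shares Clopper-Pearson intervals and ratios exact conditional binomial intervals. PCR and droplet effects are not covered. A count of 0 allows up to 3. No p was computed, since each group was 1 library. The members and lists were chosen with earlier results of these data known. The genes named were the 6 members, for each the 5 genes most like it, and from the lists the genes past the fold rule and direct partners. Some items are not reported here. Other list genes named were picked after their values were seen. No column of another sample was found (0). Alternatives changed filters, doublet rate, resolution, clustering genes, scaling, depth and thresholds, and 3 were added after seeing the data (dropping shared barcodes, dropping the endothelial-like cluster of low depth, and describing endothelial-like clusters by vessel markers). Scripts were tested on simulated counts and used Python 3.11.15, numpy 2.4.6, scipy 1.17.1, scikit-learn 1.9.0 and python-igraph 0.11.9.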

Additional observations from a re-analysis of the deposited data

Results flagged for a closer look

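Irf1 was noted because its ratio between the libraries pointed in opposite directions in different classes, with counting intervals on both sides of 0. Its log2 ratio was -0.37 in monocyte or macrophage-like cells, 0.074 in endothelial-like (a value that changed sign under other scalings), 0.29 in FAP-like, 0.26 in tenocyte-like, 0.56 in MuSC-like and 0.64 in T or NK cell-like cells. The difference between classes was not tested, since each class has 1 library a group.

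Barcodes with fewer than 300 genes, which the comparisons left out, held UMIs of the members above the 3 that a count of 0 allows. In the ATRA+agonist library Cd274 was at 0.327 CPM, Tnfsf10 at 0.262 CPM and Irf1 at 1.24 CPM. In the DMSO vehicle library Cd274 was at 0.907 CPM, Ido1 at 0.170 CPM, Ubd at 0.454 CPM, Wars at 1.19 CPM, Tnfsf10 at 0.321 CPM and Irf1 at 0.699 CPM. These barcodes were rich in hemoglobin UMIs, which lowers CPM of every other gene.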

How the results depend on the processing

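No paired analysis was possible because each group was 1 library. In endothelial-like cells 5 members stayed lower by the fold rule under every alternative tried. Over 16 alternatives the log2 ratio ranged from -2.32 to -2.07 for Cd274, -3.59 to -2.99 for Ido1, -10.003 to -5.94 for Ubd, -2.44 to -2.19 for Wars and -1.30 to -1.10 for Tnfsf10. The lowest Ubd value came without the 10 cells of each library with most UMIs, which left 1 of the 11 ATRA+agonist cells with the gene. The median of the 6 was -2.13 without the hemoglobin filter. For Irf1 in endothelial-like cells the range was -0.044 to 0.26, with the highest value without the hemoglobin filter. Its sign changed, to -0.0031 with median-of-ratios scaling and to -0.044 with cells weighted equally. Cd274 in smooth muscle or pericyte-like cells turned to 0.054 when thinned to 1000 UMIs, and Cd274 in monocyte or macrophage-like cells was at -0.42 at resolution 0.4. The cause was not tested for these. All genes lower in endothelial-like cells, 376 at 20 UMIs and 2-fold, were 143 with at least 100 UMIs, 2013 with at least 1 UMI and 893 at 1.5-fold. Counting error limited every class with fewer than 20 UMIs of a gene, for which no ratio was read, and the spread between mice was not measured.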
